A study of Homo sapiens with 6 samples.

Results

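The 9 genes described here carry out or control antigen presentation by MHC class I molecules, and they were taken by name from the deposited count table of 62438 genes. They are the heavy chain genes HLA-B, HLA-C, HLA-E and HLA-F, the light chain gene B2M, the peptide transporter genes TAP1 and TAP2, the tapasin gene TAPBP and the regulator NLRC5. All 9 passed the filter on low counts and were among the 17320 genes tested. Expression was measured by RNA-seq in a human breast cancer line labelled MDA-MB-453, which had received 10 nM of siRNA for 48 h. The siRNA was directed against N6AMT1, a methyltransferase that the study examined for adenine methylation of DNA (si-N6AMT1, 3 libraries), or was scrambled (si-CN, 3 libraries). The 6 libraries come from 1 cell line and the RNA from triplicate cells, so p-values measure the spread between these libraries, which may be technical.

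Nearly every nucleated cell displays peptides of its own proteins on MHC class I molecules, where CD8 T cells and NK cells read them. Proteasomes cut proteins into peptides, the TAP1-TAP2 transporter carries the peptides into the endoplasmic reticulum (ER), and tapasin with other chaperones helps to load them onto a heavy chain bound to beta-2-microglobulin. Interferons raise transcription of the whole pathway through STAT and IRF factors, NF-kB acts on the heavy chain and B2M promoters, and NLRC5 is the transactivator dedicated to class I genes. Loss of class I from the surface is a known route by which tumour cells avoid T cells.

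N6AMT1 (chr21:30244513-30257693, minus strand, GRCh37), the target of the siRNA, had 61, 72 and 60 counts in si-N6AMT1 replicates 1 to 3 and 136, 135 and 141 in si-CN replicates 1 to 3. It was downregulated (log2 fold change -1.10, SE 0.119, FDR = 3.65e-07, where FDR is the Benjamini-Hochberg adjusted p of edgeR's quasi-likelihood test over the 17320 genes). Library totals ran from 19739247 to 21289740 counts, and differentially expressed genes (DEGs) were those with FDR under 0.05. Among all genes tested, 9.78% were upregulated and 11.5% downregulated, and the CPM values (counts relative to library size, scaled by TMM) of the groups did not overlap and were higher in si-N6AMT1 for 16.8%. The marker genes did not all match the label. The luminal keratin gene KRT19 had 8 to 14 counts in a library, whereas the epithelial genes KRT8 and EPCAM averaged 626 and 304 CPM, and the basal keratin gene KRT17 averaged 2832 CPM. PTPRC, the pan-leukocyte gene CD45, had 1 to 3 counts in a library, and the 7 leukocyte markers summed to 1.66 to 2.29 CPM in si-N6AMT1 and 1.65 to 2.59 CPM in si-CN.

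Of the 9 class I genes, 8 were upregulated after N6AMT1 knockdown (edgeR, FDR under 0.05), against 9.78% of all genes tested. edgeR called 0 members lower, 0 had a lower value at an unadjusted p under 0.05, and DESeq2 called 0 lower. DESeq2 called 5 of the 9 higher (HLA-B, HLA-C, HLA-E, HLA-F and B2M), and it called 796 genes of the whole table higher where edgeR called 1694. In the same 8 genes every si-N6AMT1 library was above every si-CN library, against 16.8% of all genes tested. The changes were small, with a median log2 fold change of 0.24 over the 9 genes and 0.0039 over all genes tested, and 3 members (HLA-B, HLA-C and HLA-F) lay above the 90th percentile of all genes, which was 0.26. The heavy chains HLA-B, HLA-C and HLA-F changed most, B2M and NLRC5 followed, and TAP2 was not separable from si-CN. The 9 genes were listed by name with earlier results of these data known. In bulk RNA, a change in all cells and a change in the share of cells that express a gene cannot be told apart.

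HLA-B (ENSG00000234745, chr6:31321649-31334844, minus strand, GRCh37) encodes a classical, highly polymorphic heavy chain that presents peptides to CD8 T cells. It had 507, 549 and 568 CPM in si-N6AMT1 replicates 1 to 3 and 430, 418 and 400 CPM in si-CN replicates 1 to 3. All si-N6AMT1 libraries were higher, and HLA-B showed the largest log2 fold change of the 9 genes (0.38, SE 0.0318, FDR = 7.09e-09 by edgeR), which is a level 30.1% higher. HLA-C (ENSG00000204525, chr6:31236526-31239907, minus strand), a classical heavy chain that is also a main ligand of the KIR receptors of NK cells, had 96.3, 94.2 and 100.3 CPM in si-N6AMT1 and 78.9, 75.1 and 76.0 CPM in si-CN. The groups were again apart, and HLA-C was upregulated with a log2 fold change of 0.34 (SE 0.0325, FDR = 6.06e-08 by edgeR).

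HLA-E (ENSG00000204592, chr6:30457286-30461971, plus strand), a nonclassical heavy chain, binds leader peptides of other class I chains and is read by the CD94-NKG2A receptor. Its CPM values were 518, 522 and 524 in si-N6AMT1 and 495, 483 and 460 in si-CN. The si-N6AMT1 libraries were nearly equal and all higher, with a log2 fold change of 0.12 (SE 0.0242, FDR = 0.000758 by edgeR). HLA-F (ENSG00000204642, chr6:29690552-29706305, plus strand), a nonclassical heavy chain that can reach the surface without peptide, had 88.1, 80.9 and 85.5 CPM in si-N6AMT1 and 67.5, 67.5 and 70.7 CPM in si-CN. The lowest si-N6AMT1 library was above the highest si-CN library, and the log2 fold change was 0.31 (SE 0.0356, FDR = 1.04e-06 by edgeR). HLA-F-AS1, an antisense RNA that overlaps HLA-F on the opposite strand, averaged 14.8 CPM and had a log2 fold change of 0.04 (FDR = 0.748). Summed over these 4 heavy chains, CPM was 1209, 1246 and 1277 in si-N6AMT1 and 1072, 1043 and 1007 in si-CN. Heavy chain transcripts resemble one another and differ between people, and where reads match several of them kallisto assigns them by estimation against reference sequences. The division among HLA-B, HLA-C, HLA-E and HLA-F is therefore uncertain.

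B2M (ENSG00000166710, chr15:45003556-45011049, plus strand) encodes beta-2-microglobulin, the light chain without which heavy chains do not reach the surface stably. It had 2336, 2432 and 2420 CPM in si-N6AMT1 replicates 1 to 3 and 2098, 1971 and 2018 CPM in si-CN replicates 1 to 3. All si-N6AMT1 libraries were higher, and B2M was upregulated by 18.1% (log2 fold change 0.24, SE 0.0227, FDR = 4.88e-08 by edgeR). HLA-B, HLA-C, HLA-E, HLA-F and B2M remained upregulated DEGs under all 13 alternative settings of the analysis, which included each library left out in turn.

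**Figure D1:**
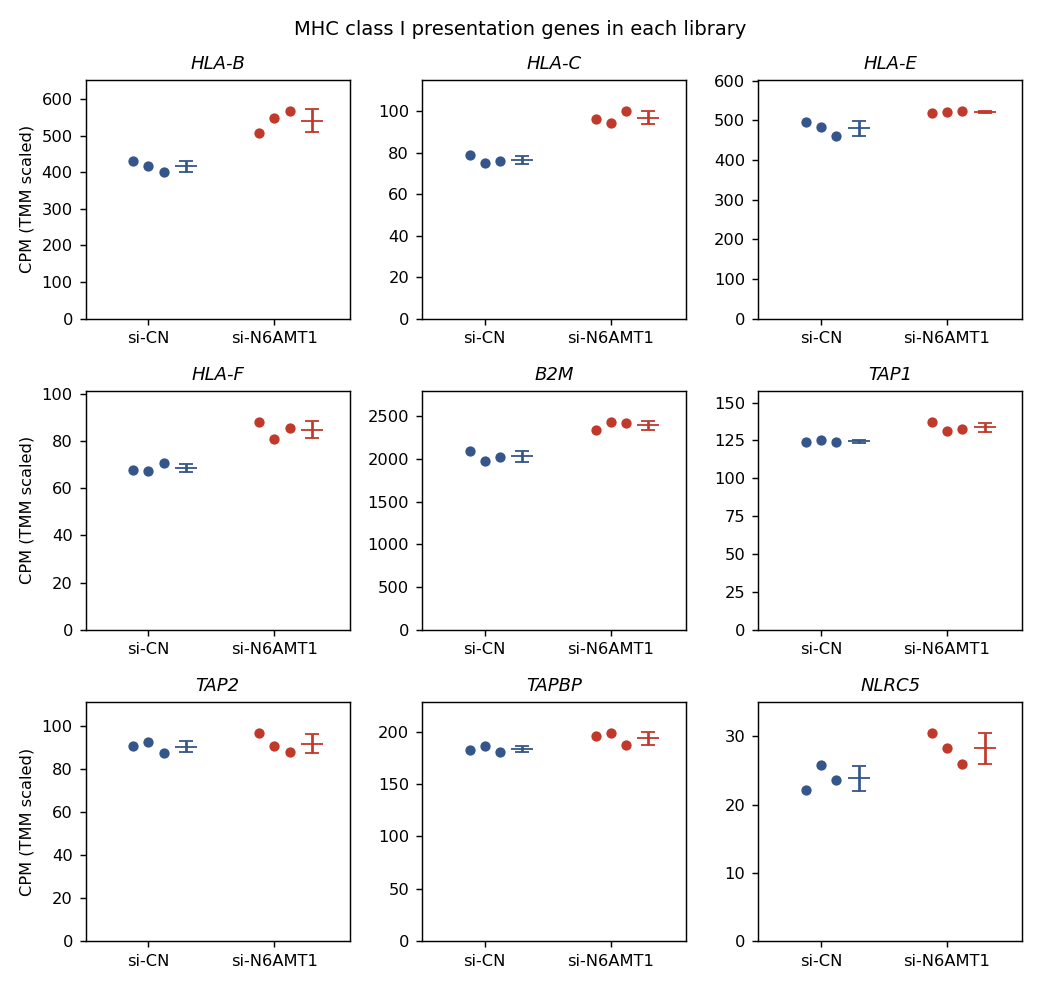
CPM of the 9 class I genes in each library (points), with the mean and SD of the 3 libraries of a group beside them; every vertical axis starts at 0. The groups are apart in 8 panels and overlap in TAP2.

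The peptide transporter is a heterodimer of TAP1 and TAP2, and its genes differed in their calls. TAP1 (ENSG00000168394, chr6:32812986-32821593, minus strand) had 137, 131 and 133 CPM in si-N6AMT1 and 124, 125 and 124 CPM in si-CN. Its libraries did not overlap, and it was upregulated with a log2 fold change of 0.11 (SE 0.0265, FDR = 0.00541 by edgeR), a call that was lost under DESeq2 (adjusted p = 0.0531). TAP2 (ENSG00000204267, chr6:32789610-32806516, minus strand) had 96.6, 90.6 and 87.8 CPM in si-N6AMT1 and 90.5, 92.6 and 87.5 CPM in si-CN. Its groups overlapped, its log2 fold change was 0.02 (SE 0.0349, FDR = 0.716 by edgeR), and an interval of 2 SE around it ran from -0.05 to 0.09, so a change of the size seen in TAP1 was outside it and smaller changes in either direction were not. TAP1 overlaps PSMB9, which was upregulated, and the antisense RNA PSMB8-AS1, which averaged 5.59 CPM and was upregulated (log2 fold change 0.45, FDR = 0.00756), both on the opposite strand, and the strand option used in counting is not given in the sources used here. What share of TAP1 counts comes from them was not tested.

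TAPBP (ENSG00000231925, chr6:33267471-33282061, minus strand) encodes tapasin, which bridges the transporter and empty class I molecules. It had 196, 199 and 187 CPM in si-N6AMT1 and 183, 186 and 181 CPM in si-CN. The lowest si-N6AMT1 library lay just above the highest si-CN library, and the log2 fold change was 0.08 (SE 0.0263, FDR = 0.0319 by edgeR). The TAPBP call was lost under DESeq2 (adjusted p = 0.118) and without si-N6AMT1 replicate 1, si-N6AMT1 replicate 2, si-CN replicate 1 or si-CN replicate 3, each left out alone (adjusted p = 0.0623 to 0.166). NLRC5 (ENSG00000140853, chr16:57023397-57117443, plus strand), the transactivator, had 30.5, 28.3 and 26.0 CPM in si-N6AMT1 and 22.2, 25.8 and 23.6 CPM in si-CN. Here the lowest si-N6AMT1 library and the highest si-CN library nearly met, and the log2 fold change was 0.24 (SE 0.0631, FDR = 0.00699 by edgeR). Without si-N6AMT1 replicate 1 the log2 fold change of NLRC5 was 0.19 and the call was lost (adjusted p = 0.0542), as it was under DESeq2 (adjusted p = 0.0507).

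Ratios of 2 genes within a library do not depend on how libraries are scaled, and 9 such ratios were compared between groups. With 3 libraries against 3, the exact two-sided permutation test cannot give a p below 0.1, so none of these comparisons can pass 0.05. The ratio of HLA-B to B2M in CPM was 0.217, 0.226 and 0.235 in si-N6AMT1 and 0.205, 0.212 and 0.198 in si-CN, a log2 difference of 0.14, with all si-N6AMT1 libraries higher. HLA-C per B2M was likewise higher in every si-N6AMT1 library, with a log2 difference of 0.10, whereas HLA-E per B2M was lower in each of them, with a log2 difference of -0.12. HLA-F per B2M overlapped between groups (log2 difference 0.07, exact permutation p = 0.4). The TAP1 to TAP2 ratio was 1.42, 1.45 and 1.51 in si-N6AMT1 and 1.37, 1.35 and 1.41 in si-CN, so that it was higher in every si-N6AMT1 library, with a log2 difference of 0.08.

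The genes of the immunoproteasome were set against the constitutive subunits that they replace. PSMB10 against PSMB7 had the largest log2 difference of the 9 ratios, at 0.46, followed by PSMB9 against PSMB6 at 0.32 and PSMB8 against PSMB5 at 0.12, and all 3 were higher in every si-N6AMT1 library. TAP1 against PSMB9 had a log2 difference of -0.16 and overlapped between groups (exact permutation p = 0.2, adjusted p = 0.225). The 7 ratios whose groups did not overlap each had an exact permutation p = 0.1, the smallest possible, and an adjusted p = 0.129 over the 9 ratios.

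Levels were compared between genes per transcript length, as TPM, a unit of transcript abundance that is scaled alike in every library, over the 3 si-CN libraries. B2M was at 4781 TPM and ranked 9 among 20019 protein-coding genes. HLA-B, at 602 TPM, ranked 204, and HLA-E, at 418 TPM, ranked 302, so 3 members were among the 1000 highest. TAPBP (118 TPM), HLA-C (110.5 TPM), HLA-F (103.0 TPM) and TAP1 (102.9 TPM) lay close together, TAP2 was at 35.5 TPM, and the regulator NLRC5 was lowest at 7.82 TPM and ranked 9330. Neighbours in this order did not overlap between libraries, with the exception of HLA-F and TAP1. The spread between libraries does not cover error in the reference length, which is the same in every library, or in the assignment of reads. HLA-B made up 48.8% ± 0.316 (SD, n = 3) of the TPM of the 4 heavy chains, a share that rests on the estimated division of reads among them. By CPM, which takes no account of length, HLA-E ranked 238 and HLA-B 298, the reverse of their order in TPM. TAP1 (rank 1777) and TAP2 (2625) were likewise above HLA-C (3145) and HLA-F (3526) by CPM, and below them in TPM.

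**Figure D2:**
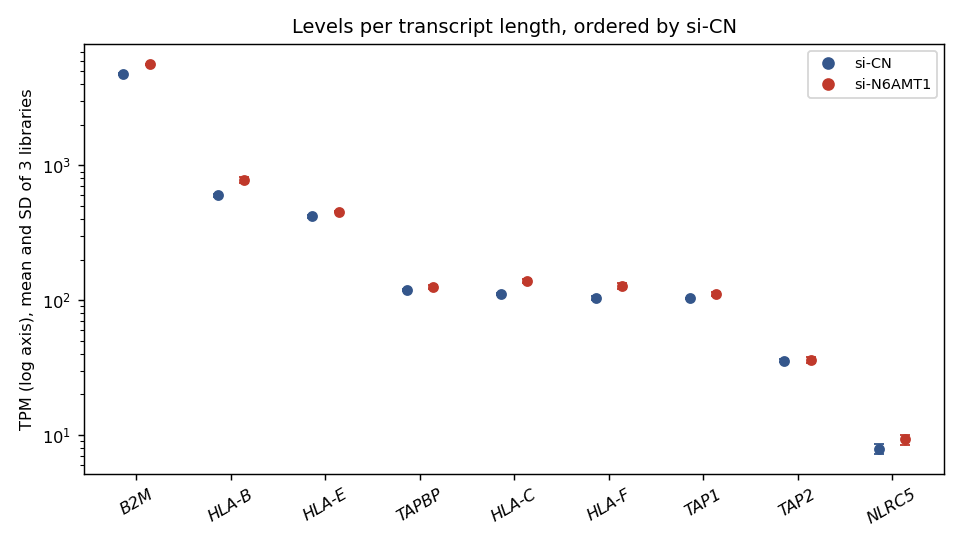
Level of each class I gene in TPM (log axis), as the mean and SD of 3 libraries, ordered by si-CN. B2M stands above the heavy chains at 4781 TPM, and NLRC5 is lowest at 7.82 TPM.

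The promoters were read for the binding sites through which class I genes are known to be controlled. RefSeq sequences on GRCh38.p14, from 250 bases before to 50 bases after the start, matched 7 of the 9 genes (8 entries, with 2 for TAP1), and the promoters of HLA-E and NLRC5 were not analysed here. Both strands were searched for AANNGAAA (a core of IRF sites), GGGNNTTNC (a kB core), TGACG (a core of CRE sites, bound by CREB and ATF1) and CCAAT (the Y box bound by NFY), and matches may overlap one another. Members were counted if any of their entries held a core, whereas the share over all promoters counts single entries. Of the 2 TAP1 entries, 1 held no match to any core. An IRF core was present in 7 of 7 members and in 22.8% of 35116 promoters. A kB core was present in 4 members (16.2% of promoters), a CRE core in 4 (24.6%) and a Y box core in 5 (34.6%). TGACG followed after 15 to 25 bases by ATTGG, the order of the SXY module that serves NLRC5, was found in 3 members, HLA-B, HLA-C and B2M, and in 0.447% of promoters. HLA-B and HLA-C are paralogs, so their matches are not independent.

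The stretches with these matches are shown for the 3 members that hold the CRE and Y box order and, for contrast, for the 2 transporter genes, of which TAP2 was no DEG. They are written 5′ to 3′ on the gene's strand, matches are in capitals on whichever strand they occur, adjoining or overlapping matches form 1 run, and positions count from the start site. Their coordinates are in another genome build than the gene positions given above.
HLA-B, chr6:31357221-31357366 of GRCh38.p14, minus strand, from -187 to -42: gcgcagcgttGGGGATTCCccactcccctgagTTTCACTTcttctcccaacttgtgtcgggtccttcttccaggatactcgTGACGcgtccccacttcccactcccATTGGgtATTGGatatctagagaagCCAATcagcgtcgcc
HLA-C, chr6:31272134-31272294 of GRCh38.p14, minus strand, from -202 to -42: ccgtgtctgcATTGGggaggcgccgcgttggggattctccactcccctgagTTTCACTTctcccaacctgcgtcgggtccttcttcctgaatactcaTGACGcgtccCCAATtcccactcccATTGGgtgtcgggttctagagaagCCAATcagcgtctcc
B2M, chr15:44711365-44711526 of GRCh38.p14, plus strand, from -152 to 10: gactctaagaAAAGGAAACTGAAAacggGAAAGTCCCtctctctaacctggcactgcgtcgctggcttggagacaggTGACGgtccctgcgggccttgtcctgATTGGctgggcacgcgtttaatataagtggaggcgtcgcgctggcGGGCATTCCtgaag
TAP1, chr6:32853758-32853954 of GRCh38.p14, minus strand, from -250 to -54: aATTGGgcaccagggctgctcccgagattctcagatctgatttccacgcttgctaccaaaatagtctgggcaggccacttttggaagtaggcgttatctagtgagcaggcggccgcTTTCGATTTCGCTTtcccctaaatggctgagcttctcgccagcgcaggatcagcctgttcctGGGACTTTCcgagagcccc
TAP2, chr6:32838760-32838811 of GRCh38.p14, minus strand, from -72 to -21: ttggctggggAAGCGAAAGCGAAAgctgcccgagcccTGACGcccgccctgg

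HLA-B and HLA-C share the line-up of an IRF core, TGACG and ATTGG, and B2M carries the same elements with a longer IRF run made of 2 overlapping matches. TAP1 and TAP2 both hold such a run of 2 IRF matches, so the transporter gene that was called and the gene that was not both carry these letters, and TAP2 has TGACG without a Y box core. A match is a string of letters and does not show that a factor bound there.

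Among genes that supply peptides, 5 of the 9 proteasome genes tested were upregulated (9.78% of all genes), with a list median log2 fold change of 0.12. All 3 catalytic subunits of the immunoproteasome were among them. PSMB10 had 15.7, 14.9 and 16.1 CPM in si-N6AMT1 and 10.8, 12.6 and 10.5 CPM in si-CN (log2 fold change 0.47, SE 0.0788, FDR = 0.000128), and PSMB9 rose by 0.27 (SE 0.0531, FDR = 0.000689) and PSMB8 by 0.12 (SE 0.0390, FDR = 0.0248). PSME1 and PSME2, the subunits of the PA28 activator, rose by 0.14 (FDR = 0.00106) and 0.16 (FDR = 0.00125). The PSMB8 call was lost without si-N6AMT1 replicate 2 or 3 or si-CN replicate 2 or 3 (adjusted p = 0.0631 to 0.144), and under DESeq2 (adjusted p = 0.156). The constitutive PSMB5, PSMB6 and PSMB7 and the nuclear activator PSME3 had log2 fold changes of -0.06 to 0.01 and FDR of 0.245 to 0.922. Of 9 peptidases, 4 were downregulated (11.5% of all genes), with a list median of -0.05. ERAP1, which trims peptides in the ER to the length that class I binds, fell by 0.15 (SE 0.0263, FDR = 0.000261), and the endosomal LNPEP also fell by 0.15 (SE 0.0320, FDR = 0.00145). The calls of NRDC (log2 fold change -0.08) and NPEPPS (-0.06) were lost without si-N6AMT1 replicate 2, si-N6AMT1 replicate 3, si-CN replicate 2 or si-CN replicate 3 (adjusted p = 0.0681 to 0.0928 for NRDC and 0.0938 to 0.142 for NPEPPS).

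The ER chaperones moved in both directions, with 4 of 11 upregulated (9.78% of all genes), 5 downregulated (11.5% of all genes) and a list median of -0.01. PDIA3 (ERp57), which joins tapasin in the peptide-loading complex, averaged 977 CPM in si-CN and 1082 CPM in si-N6AMT1 (log2 fold change 0.15, SE 0.0201, FDR = 9.12e-06), and CALR, the lectin chaperone of that complex, rose by 0.08 (FDR = 0.00355). TAPBPL, the peptide editor related to tapasin, rose by 0.29 (FDR = 0.00147), and PRKCSH, a subunit of glucosidase II, by 0.10 (FDR = 0.00317). HSPA5 (BiP), the main Hsp70 of the ER, fell by 0.22 (SE 0.0211, FDR = 6.45e-08). Also downregulated were the disulfide isomerase gene PDIA6 at -0.20 (FDR = 1.23e-06), UGGT1, which returns misfolded glycoproteins to the lectin chaperones, at -0.21 (FDR = 4.98e-06), CANX, the membrane-bound partner of CALR, at -0.14 (FDR = 2.55e-05) and GANAB at -0.06 (FDR = 0.0279). GANAB lost its call without si-N6AMT1 replicate 2 or 3 or si-CN replicate 2 or 3 (adjusted p = 0.0807 to 0.123).

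Transcription factors that bind class I promoters moved in both directions. In the list of IRF, STAT and NF-kB factors, 5 of 13 were upregulated (9.78% of all genes) and 3 downregulated (11.5% of all genes), with a median log2 fold change of 0.07. The number upregulated was 3 under DESeq2 and without si-CN replicate 3, and the number downregulated was 1 without si-N6AMT1 replicate 3 or si-CN replicate 2. IRF1, an activator of class I and immunoproteasome genes, had 74.1, 76.2 and 79.6 CPM in si-N6AMT1 and 64.2, 62.3 and 64.0 CPM in si-CN (log2 fold change 0.27, SE 0.0347, FDR = 3.82e-06). IRF9, the DNA-binding part of the interferon-activated complex ISGF3, rose by 0.21 (SE 0.0276, FDR = 5.66e-06), IRF3 by 0.13 (FDR = 0.0123), RELA by 0.10 (FDR = 0.00232) and NFKB2 by 0.09 (FDR = 0.0429). Among the downregulated, NFKB1 fell by 0.15 (FDR = 0.00100) and REL by 0.22 (FDR = 0.00887). The calls of IRF1, IRF9 and NFKB1 held under all 13 alternatives. With a library left out, IRF3 lost its call in 2 cases (si-N6AMT1 replicate 1, si-CN replicate 3), REL in 2 (si-N6AMT1 replicate 3, si-CN replicate 2) and NFKB2 in 4 (si-N6AMT1 replicates 1 and 3, si-CN replicates 1 and 3). The adjusted p was then 0.0744 to 0.0829 for IRF3, 0.0566 to 0.0900 for REL and 0.0792 to 0.185 for NFKB2. Of 16 genes of the SXY module and of chromatin regulators of class I, 1 was upregulated (9.78% of all genes) and 0 downregulated (11.5% of all genes), with a list median of -0.01. The upregulated gene was RFXANK, a subunit of the RFX complex (log2 fold change 0.21, SE 0.0474, FDR = 0.00193). Its partners RFX5 and RFXAP had log2 fold changes of 0.07 (FDR = 0.252) and -0.01 (FDR = 0.962). The next lowest p-values in that list were those of EP300 (-0.09, FDR = 0.118), NFYA (-0.07, FDR = 0.209) and ATF1 (0.09, FDR = 0.225), and EP300 was a DEG without si-N6AMT1 replicate 1 (log2 fold change -0.14, adjusted p = 0.0168).

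Of 14 genes for interferon and TNF receptors and their signalling, 4 were upregulated (9.78% of all genes) and 1 downregulated (11.5% of all genes), with a median log2 fold change of 0.05. The number upregulated was 2 under DESeq2 and without si-N6AMT1 replicate 2 or si-CN replicate 3. TNFRSF1A, the main TNF receptor, rose by 0.15 (SE 0.0241, FDR = 9.72e-05), IFNGR2 by 0.12 (FDR = 0.00302), IFNAR2 by 0.14 (FDR = 0.0189) and IFNGR1 by 0.11 (FDR = 0.0129). IFNGR1 lost its call without si-N6AMT1 replicate 2 or si-CN replicate 3 (adjusted p = 0.0631 and 0.0907), and IFNAR2 without either of these or si-CN replicate 1 (adjusted p = 0.0623 to 0.0948). SOCS3, a feedback inhibitor of cytokine signalling, fell by 0.20 (SE 0.0361, FDR = 0.000322). Among 15 nucleic acid sensing genes, 4 were upregulated (9.78% of all genes) and the median was 0.05. The number was 1 under DESeq2, and 2 without si-N6AMT1 replicate 1 or si-CN replicate 2. OAS1, an interferon-induced sensor of double-stranded RNA, had 199, 198 and 204 CPM in si-N6AMT1 and 180, 182 and 180 CPM in si-CN (log2 fold change 0.15, SE 0.0238, FDR = 5.61e-05). The log2 fold changes of CGAS (0.17, FDR = 0.0165), TBK1 (0.14, FDR = 0.0118) and IFIH1 (0.12, FDR = 0.0285) were called less firmly. CGAS lost its call without si-N6AMT1 replicate 1 or 2 or si-CN replicate 1 or 3 (adjusted p = 0.0593 to 0.0879), TBK1 without si-CN replicate 2 (adjusted p = 0.0680), and IFIH1 without si-N6AMT1 replicate 1 or 3 or si-CN replicate 2 (adjusted p = 0.0580 to 0.159).

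Molecules built like class I but with other tasks were mixed, with 4 of 12 tested genes upregulated (9.78% of all genes), 1 downregulated (11.5% of all genes) and a median of 0.06. The number upregulated was 2 under DESeq2 and without si-N6AMT1 replicate 1. RAET1G, a stress ligand of the NK receptor NKG2D, had 7.97, 7.84 and 6.73 CPM in si-N6AMT1 and 5.25, 5.84 and 4.71 CPM in si-CN (log2 fold change 0.51, SE 0.111, FDR = 0.00153). The NKG2D ligands MICA and MICB rose by 0.12 (FDR = 0.0421) and 0.14 (FDR = 0.0204), but MICA lost its call without si-N6AMT1 replicate 1 or 3 or si-CN replicate 1 or 2 (adjusted p = 0.0912 to 0.165), and MICB without si-N6AMT1 replicate 1 or si-CN replicate 3 (adjusted p = 0.101 and 0.0936). ULBP1, ULBP2 and ULBP3, which bind the same receptor, had log2 fold changes of -0.06 (FDR = 0.768), 0.03 (FDR = 0.852) and -0.11 (FDR = 0.467). PROCR, the endothelial protein C receptor, rose by 0.19 (FDR = 0.000217), and HFE, the iron regulator that needs B2M for its surface transport, fell by 0.25 (FDR = 0.0105, but adjusted p = 0.116 by DESeq2). HLA-G, FCGRT and AZGP1 had too few counts to be tested.

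Of 5 class I pseudogenes tested, 1 was upregulated (9.78% of all genes). It was HLA-K (log2 fold change 0.29, SE 0.0943, FDR = 0.0334), and its call was lost with any library other than si-CN replicate 1 left out (adjusted p = 0.0716 to 0.139). The others were HLA-J (0.36, FDR = 0.269), HLA-H (0.18, FDR = 0.373), HLA-V (0.10, FDR = 0.169) and HLA-L (-0.61, FDR = 0.144), and their reads may be shared with the functional genes. Of 12 genes that act on class I turnover, 3 were upregulated (9.78% of all genes; 1 of the 12 under DESeq2) and 1 downregulated (11.5% of all genes), with a median of 0.01. MARCHF4, a membrane ubiquitin ligase that can remove class I from the surface, had 18.1, 18.2 and 17.7 CPM in si-N6AMT1 and 12.9, 12.7 and 12.3 CPM in si-CN (log2 fold change 0.51, SE 0.0662, FDR = 4.52e-06). TMEM127, part of a complex that sends class I to lysosomes, rose by 0.14 (FDR = 0.00744, but adjusted p = 0.109 by DESeq2), and B3GNT5, which makes glycosphingolipids that shield class I, fell by 0.31 (SE 0.0356, FDR = 7.77e-07). SYVN1, a ligase of ER-associated degradation, rose by 0.12 (FDR = 0.0343), a call that was lost with any library other than si-N6AMT1 replicate 2 left out (adjusted p = 0.0531 to 0.130).

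Genes of MHC class II, which dedicated antigen-presenting cells express, were at the floor of detection. Only 2 of 11 were tested, HLA-DQB1 at 3.34 ± 0.0804 CPM and HLA-DMA at 2.29 ± 0.483 CPM in si-CN (SD, n = 3), with log2 fold changes of -0.18 (FDR = 0.471) and 0.19 (FDR = 0.535). HLA-DRA had 0 or 1 count in each library and CD74, the invariant chain, had 2 to 5. CIITA, the class II counterpart of NLRC5, was at 2.87 CPM in si-CN and had a log2 fold change of 0.08 (FDR = 0.794).

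**Figure D3:**
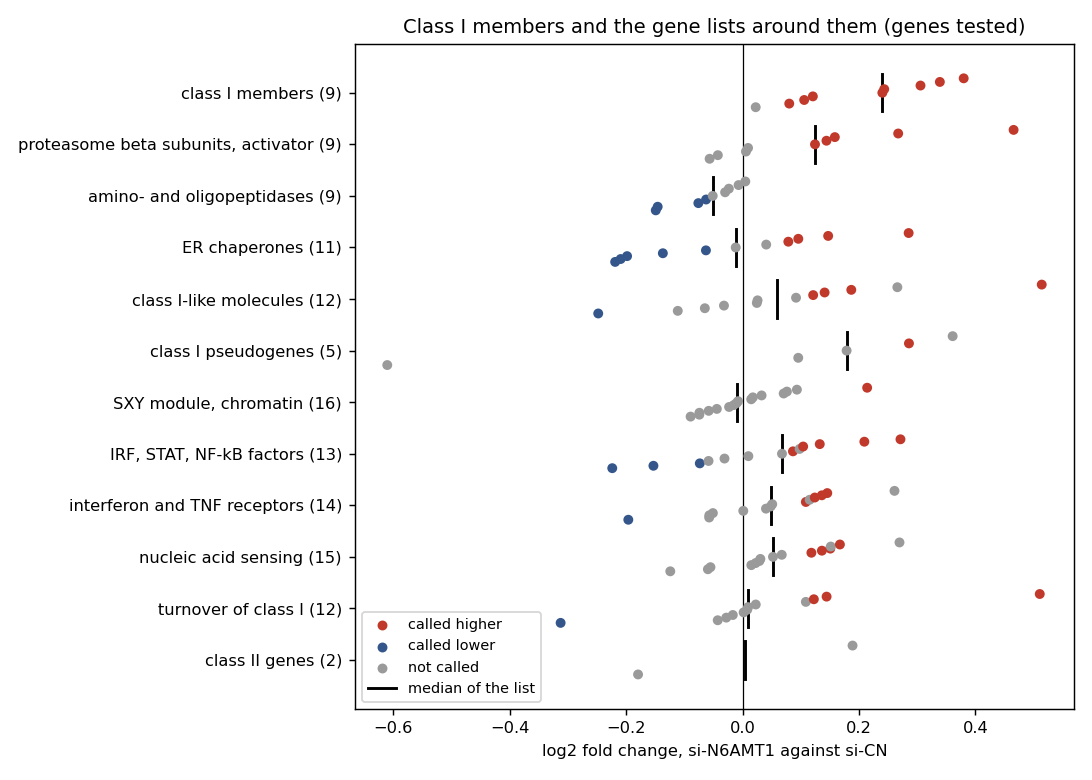
Log2 fold change (si-N6AMT1 against si-CN, horizontal axis) of the class I members and of the tested genes of 11 lists around them, with the number tested in brackets. Points are genes coloured by their edgeR call and black bars are list medians; the members have the highest median at 0.24, and peptidases the lowest at -0.05.

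Since 7 of the 9 members lie on chromosome 6, the region from 28 to 34 Mb (GRCh37) that holds the MHC was counted as a whole. Of 176 genes tested there, 29 (16.5%) were upregulated and 10 (5.68%) downregulated, against 8.45% and 11.5% of the 710 genes tested on the rest of chromosome 6. The 29 became 19 without si-N6AMT1 replicate 1 and 13 under DESeq2, and the 10 became 6 without si-N6AMT1 replicate 2. Without the members, 23 of 169 (13.6%) were upregulated, and without the members and list genes 18 of 158 (11.4%), for which all genes tested give 9.78%. Downregulated genes were 6.33% of those 158, and all genes tested give 11.5%. The 158 still include class I related genes that are on no list, so they are not only unrelated neighbours. No test of these shares was made, since neighbouring genes are not independent. CFB, complement factor B, had the lowest p outside the members and lists, with 122, 130 and 130 CPM in si-N6AMT1 and 94.3, 91.1 and 87.6 CPM in si-CN (log2 fold change 0.48, SE 0.0322, FDR = 1.68e-10). TRIM26, a ubiquitin ligase, and TCF19, which lie between heavy chain genes, were downregulated, with log2 fold changes of -0.41 (SE 0.0313, FDR = 1.41e-09) and -0.27 (SE 0.0344, FDR = 3.40e-06).

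Genes with the most similar pattern over the 6 libraries were sought by Pearson's r of log2 CPM, as a description with no p, since all genes that differ between the groups share that difference. For HLA-B these were ENSG00000258593 (r = 0.999), BEST1 (0.999) and SHISA5 (0.998), and for B2M they included ANXA1 (0.998) and CSE1L (0.997). The closest to TAP1 were PRPF6 (0.998), TNRC6A (0.995) and GAA (0.993), and to NLRC5 GLYCTK (0.995), GPM6B (0.994) and MED17 (0.991).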

How the data were processed

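RNA-seq of 3 si-N6AMT1 and 3 si-CN libraries of cells labelled MDA-MB-453 was analysed, with groups and replicate numbers from the sample labels. Reads of 151 bp had been trimmed (Trim Galore) and quantified by the authors with kallisto v0.46.0 on hg19, then summed by gene. They deposited estimated counts (expected counts) for 62438 genes as whole numbers, without normalization, and all value columns were matched to a sample. kallisto's strand option is not given in the sources used here, and similar or overlapping genes can exchange reads.

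Counts were tested in R v4.3.3 by edgeR v4.0.16: expression filter with a minimum count of 10 (17320 genes), TMM scaling, a quasi-likelihood test on all 6 libraries without covariate, and Benjamini-Hochberg adjustment with a threshold of 0.05. SE was obtained from the size of a log2 fold change and its F statistic (change over root F). Symbols were matched for 62149 genes, and TPM used reference transcript lengths (GENCODE on GRCh37). At 19.7 to 21.3 counts per CPM, genes of a few CPM carry wide errors, and counts of single libraries cover counting error only. Chi-square per degree of freedom between libraries of the same group was 1.35 to 1.69, above sampling noise alone. All libraries were kept as replicates, but this value cannot show whether they are biological or technical, since estimated counts also carry assignment error. On simulated counts, edgeR recovered 95% of 200 genes changed 1.5-fold among 17377 tested, and 5% of its calls were false. The changed genes were drawn from well-counted genes, and a fixed dispersion was used for all genes. The largest change among the members was 1.30-fold (HLA-B), so recovery of changes as small as theirs was not measured.

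The members and lists were chosen with earlier results of these data known. The text names all members, N6AMT1, up to 4 genes of lowest p per list, the genes of the ratios, 4 genes of lowest p in the MHC region outside members and lists, and the 3 genes most like HLA-B, B2M, TAP1 and NLRC5. Other called list genes, the ULBP genes, RFX5, RFXAP, HLA-H, CIITA and overlapping genes were added after their values were seen, and a few genes that the rules give are not reported here. Promoters are RefSeq entries on GRCh38.p14, searched in Python v3.11.15. Ratios were compared by an exact permutation test in scipy v1.17.1.

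Alternatives were RLE size factors, DESeq2 v1.42.0, limma-voom (limma v3.58.1), no filter, a filter of 1 CPM in 3 libraries, a replicate block, that block with a GC correction, each library left out, CPM ranks for levels and raw counts plus 1 for ratios.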

Additional observations from a re-analysis of the deposited data

How the results depend on the processing

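TAP1, TAPBP and NLRC5 lost their calls under some alternatives, whereas HLA-B, HLA-C, HLA-E, HLA-F and B2M kept theirs under all 13. DESeq2 called fewer genes, with 796 higher and 1139 lower over all genes, 5 of the 9 members higher, 18 list genes higher (31 by edgeR) and 13 genes of the MHC region higher (29 by edgeR). With the replicate block and a GC correction, 19 genes of the region were higher. TAP2 ran from -0.015 (without si-N6AMT1 replicate 1, where it reversed) to 0.053 with libraries left out. The cause of these shifts was not tested. At this depth, genes of a few CPM, such as N6AMT1 and the class II genes, rest on few counts per library and carry wide errors.

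With each library left out in turn, 1295 to 1523 genes were higher and 1540 to 1818 lower, 6 to 8 members were higher, list genes ran from 22 to 26 higher and 10 to 16 lower, and genes of the region from 19 to 25 higher and 6 to 9 lower. The deviations of libraries with the same number correlated at -0.12, -0.09 and 0.01, and those of libraries with different numbers at -0.03 to 0.11. Deviations from a mean of 3 libraries are tied to one another, so these values do not settle whether the numbers pair the libraries. The replicate block gave 1522 higher and 1804 lower genes and 8 members higher; with the GC correction added, calls were lost by TAP1 (adjusted p = 0.0726), TAPBP (0.213), CALR (0.0701), PRKCSH (0.205) and RELA (0.0745), among others. N6AMT1 was lower under every alternative, although DESeq2 gave it no adjusted p (log2 fold change -1.10). Over single genes, lists and ratios, 988 values under an alternative kept their direction and call, 62 lost the call, 1 gained it, 1 reversed and 33 counts within a list moved by over 1.5 times.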
